A study of Mus musculus with 8 samples.

Results

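The autophagy machinery genes are the 40 genes, chosen by symbol, that build and direct the autophagosome. All 40 matched 1 Ensembl mouse identifier each among the 41388 in the count tables, and all 40 held enough counts for a test, as did 12002 genes in all. They fall into 7 roles, namely the initiation kinase complex (5 genes), the class III PI3 kinase complex and its regulators (7), membrane supply and PI3P effectors (5), the conjugation system (11), the LC3 and GABARAP proteins (5), cargo receptors and related adaptors (5) and fusion with the lysosome (2). Microglia, which are the macrophages that reside in brain and spinal cord, were sorted from adult C57BL/6 mice by CD11c, CD11b and CD45, and their total RNA was sequenced. The 8 libraries form 3 groups, with 2 libraries of CD11c+ microglia from mice with neuromyelitis optica (NMO), 3 of CD11c- microglia from such mice and 3 of microglia from control mice. NMO is known for inflammation of the optic nerves and spinal cord, and how it was induced is not given in the sources used here. Labels of the control libraries differ among themselves, since a characteristic reads CD11c negative and the titles read total microglia, unmanipulated. No CD11c+ control group is among the libraries, so subset and disease cannot be told apart between CD11c+ NMO and control cells. Library numbers of the controls also lie apart from those of the NMO libraries. In both comparisons with controls, disease and any difference in handling thus cannot be told apart.

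Autophagy encloses cytoplasm, organelles or microbes in a double membrane that then fuses with the lysosome. The ULK1 kinase complex starts the process, the class III PI3 kinase marks the site with the lipid PI3P, and a ubiquitin-like conjugation system attaches LC3 and GABARAP proteins to the growing membrane, where cargo receptors bind them. In phagocytes such as microglia part of the same machinery also attaches LC3 to phagosomes that hold engulfed material.

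The libraries held 4943207 and 5914412 counts in the CD11c+ NMO group, 6437516 to 6819662 in the CD11c- NMO group and 7500815 to 9246061 in the control group. The members took 0.257% to 0.275% of the counts in each library. Of the microglia markers, P2ry12 was at 1949.9 and 2759.9 CPM (counts scaled to library size) in CD11c+ libraries, 2787 to 3854 in CD11c- NMO libraries and 4619 to 4910.4 in controls. Tmem119 was at 2094 and 1623 CPM in CD11c+ libraries, 1885 to 2135 in CD11c- NMO libraries and 2439 to 2791 in controls. Cx3cr1 was at 4564 and 4543 CPM in CD11c+ libraries, 4864 to 6299 in CD11c- NMO libraries and 7115 to 7810.0 in controls. Siglech was at 836 and 1238 CPM in CD11c+ libraries, 1324 to 1503 in CD11c- NMO libraries and 1560.4 to 1747 in controls. In each of these 4 genes every control was above every NMO library. For Sall1 the groups overlapped, at 1691 and 1147 CPM in CD11c+ libraries, 1304 to 1572 in CD11c- NMO libraries and 1266 to 1403 in controls. All 10 neutrophil markers were lower in both CD11c+ libraries than in each other library, with summed levels of 15.3 and 19.7 CPM, against 2067 to 10682 in CD11c- NMO libraries and 864 to 1774 in controls. Ly6g, the neutrophil surface antigen, was at 0 in both CD11c+ libraries. Dendritic cell markers summed to 17.8 and 15.7 CPM in CD11c+ libraries, 14.8 to 18.8 in CD11c- NMO libraries and 7.19 to 11.9 in controls. Monocyte markers summed to 51.5 and 41.8 CPM in CD11c+ libraries, 190 to 959 in CD11c- NMO libraries and 79.0 to 152 in controls. The genes of this list did not move together. Chil3 (means 0.66, 392 and 83.1 CPM in the same order) and Ly6c2 were lower in both CD11c+ libraries than in each control. Fn1 was higher there than in each control (means 22.7, 35.3 and 4.19 CPM), and Ccr2, Vcan and F13a1 overlapped with controls. Border macrophage markers summed to 113 and 56.2, 96.2 to 126 and 42.6 to 103 CPM in the same order, with overlapping groups. Of the T cell genes, Cd3e and Cd3g were at 0 in all 8 libraries, while Trac, Cd3d and Lck held 1, 5 and 18 counts over all libraries. CD11c+ replicate 1 stood apart by base composition. Over 11946 genes, its deviation from the mean of all libraries had a Spearman correlation of 0.592 with GC content, while the other libraries lay between -0.299 and -0.0378. These correlations are given as a description. Whether the libraries are from different mice or from pools is not stated in the labels, and each p-value reflects only how far these samples spread. In RNA of sorted bulk cells, fewer cells of a type and less RNA per cell cannot be told apart.

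Gabarap was the most strongly represented member per length of gene. On the RPKM scale (CPM per kilobase of annotated exon, averaged over the 8 libraries) Gabarap was at 87.8, with single libraries from 62.6 to 137. Sqstm1, which encodes the cargo receptor p62, followed at 66.1 RPKM (46.2 to 92.5), so the ranges of the first pair overlapped. Ulk2, a kinase that can stand in for Ulk1, was at 43.8 RPKM (32.8 to 49.2) and Nbr1, a receptor related to p62, was at 27.2 (23.9 to 30.3). The next levels were close to each other, with Map1lc3a at 20.3 (16.1 to 25.9), Atg5 at 18.4 (12.3 to 21.7) and Ambra1 at 15.5 (13.6 to 18.3). The lowest levels were those of Optn (1.86 RPKM), Atg16l2 (2.15) and Gabarapl2 (2.99), with Atg4a between Optn and Atg16l2. Scaled by the longest transcript in place of all annotated exons, the first 4 genes kept their places. Further down the order moved, with Tax1bp1 in place 5 rather than 14.

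Near-identical copies limit the levels of 3 of these genes. A search of the members' longest transcripts against all other GENCODE M21 transcripts, at 95% identity or more over at least 200 bases, found 3 processed pseudogenes of Gabarapl2 (up to 99.4% identity over 349 bases) and 4 of Map1lc3b (up to 99.6% over 282 bases). Atg4a has the copy Atg4a-ps, identical at 99.3% of 2115 bases. The pseudogenes and Atg4a-ps held 0 to 13 counts over all 8 libraries. How reads that match several places were counted, and with which strand setting, is not given in the sources used here, so the levels of Gabarapl2, Map1lc3b and Atg4a are uncertain and may be too low. Atg4a also shares 508 bases with Syt6, and Uvrag shares stretches of 214 to 345 bases with 15 other genes across the genome. Exons of 14 members overlap another gene (Rb1cc1, Becn1, Atg14, Uvrag, Rubcn, Atg9a, Atg2b, Atg4d, Atg16l2, Map1lc3b, Gabarapl1, Sqstm1, Optn and Tax1bp1), on the other strand in each and for Atg9a also on its own strand. Without the strand setting their reads and those of the overlapping gene cannot be told apart.

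Few members passed the test between the groups. Between CD11c+ and CD11c- microglia of NMO mice 0 of 40 members were called, which means here an adjusted p under 0.05 (edgeR quasi-likelihood test, Benjamini-Hochberg over all genes tested). Of all genes 0.283% were called there. At an unadjusted p under 0.05, 5 members were higher and 0 lower (7.90% and 7.54% of all genes, 15.4% in either direction). The groups did not overlap for 7 members that were higher and 1 that was lower (13.8% and 14.2% of all genes). DESeq2 called 2 members, Gabarap and Sqstm1, both higher, and 2.23% of all genes.

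Between CD11c- NMO and control microglia 0 members were called by edgeR and 0 by DESeq2. Of all genes edgeR called 3.72% and DESeq2 called 5.80%. At an unadjusted p under 0.05, 1 member was higher and 5 were lower (11.7% and 7.02% of all genes, 18.8% in either direction). The groups did not overlap for 6 members that were higher and 8 that were lower (17.6% and 16.1% of all genes).

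Between CD11c+ NMO and control microglia 1 member, Gabarap, was called higher and 0 were called lower. Of all genes 10.2% were called, 6.85% higher and 3.36% lower. DESeq2 called Gabarap and Calcoco1, both higher, and 13.9% of all genes. At an unadjusted p under 0.05, 7 members were higher and 5 lower (15.6% and 13.2% of all genes, 28.8% in either direction). The groups did not overlap for 9 members that were higher and 8 that were lower (22.2% and 21.5% of all genes). The comparisons share libraries, so their counts are not independent of each other.

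The estimated differences were all under 2-fold. The median log2 fold change of the 40 members was 0.04 for CD11c+ against CD11c- NMO cells, -0.04 for CD11c- NMO cells against controls and -0.01 for CD11c+ NMO cells against controls, beside 0.01, -0.0040 and 0.0061 over all tested genes. All 40 estimates lay within 2-fold in each comparison, as did 95.8%, 94.1% and 92.8% of all genes in the same order. The 95% interval itself lay within 2-fold for 39, 38 and 37 of the 40 members, against 75.3%, 79.4% and 69.7% of all genes. It lay within 1.5-fold for 29, 31 and 21 members, against 43.4%, 55.7% and 35.9% of all genes. Half-widths of these intervals had medians of 0.31, 0.28 and 0.31 on the log2 scale and reached 0.71, for Optn. The summed level of all members was 2762 and 2776 CPM in CD11c+ libraries, 2493 to 2646 in CD11c- NMO libraries and 2565 to 2815 in controls.

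**Figure D1:**
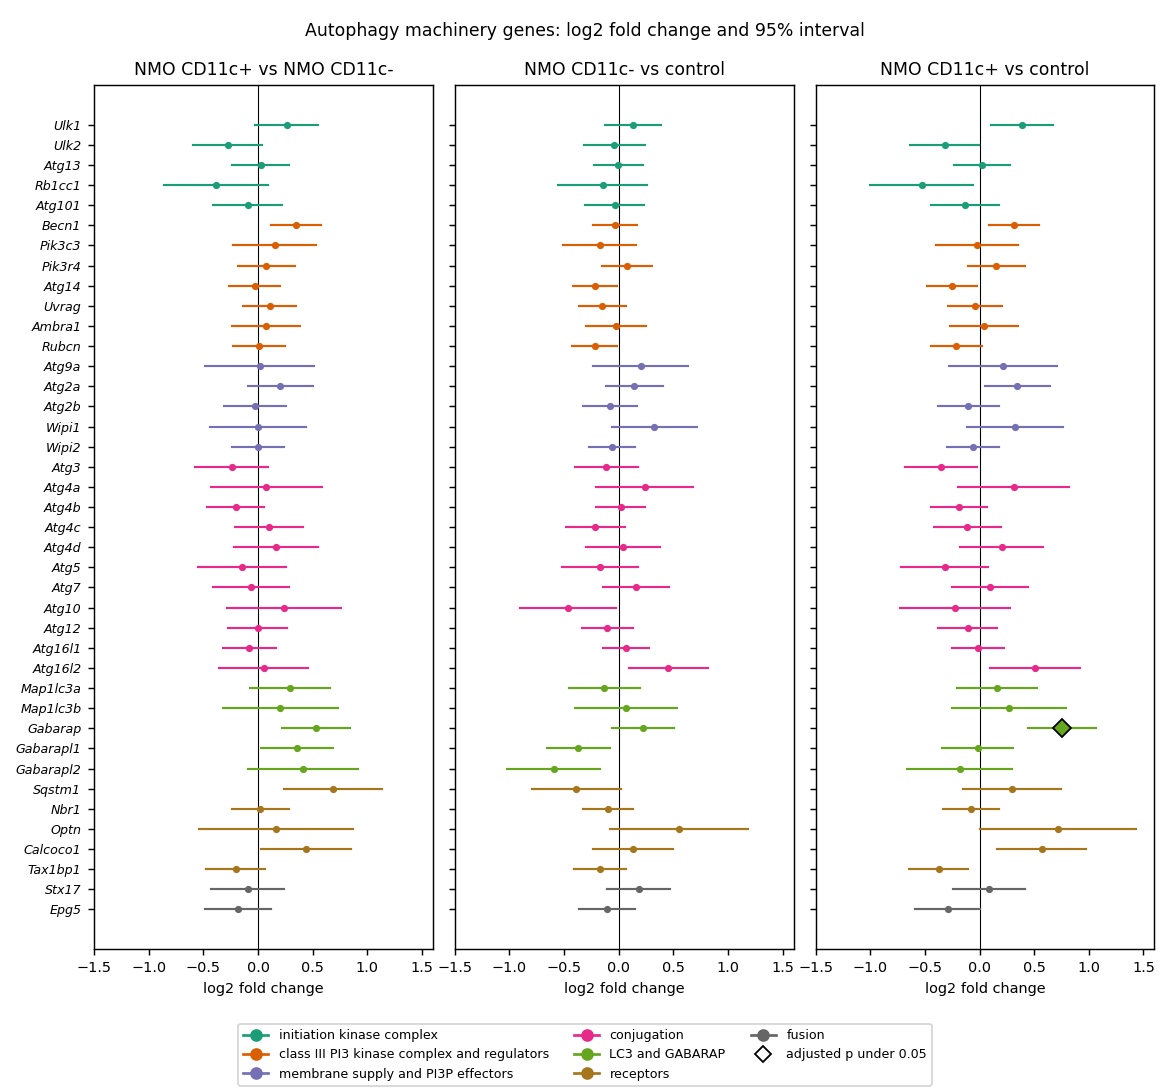
Log2 fold change (x axis) of each of the 40 genes (rows, coloured by role) in the 3 comparisons, with lines for the 95% interval and a diamond for an adjusted p under 0.05. A single diamond is drawn, for Gabarap between CD11c+ NMO and control microglia at 0.75, and every point lies within 1 of 0.

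Gabarap rose in CD11c+ microglia of NMO mice relative to controls. The gene encodes a small ubiquitin-like protein that is coupled to the autophagosome membrane and acts late in its closure and in its fusion with the lysosome. It lies on chromosome 11 from 69991143 to 69994951 in GRCm38 (ENSMUSG00000018567, plus strand) and overlaps no other exon of GENCODE M21. Its levels were 253 and 189 CPM in the CD11c+ libraries, 153, 154 and 152 CPM in the CD11c- NMO libraries and 143, 135 and 115 CPM in the controls. The 3 groups did not overlap, and the CD11c+ libraries were the highest. Against controls the log2 fold change was 0.75 (SE 0.139, 95% interval 0.44 to 1.06, adjusted p = 0.00941), a ratio of 1.68. Against CD11c- NMO cells it was 0.53 (SE 0.140, interval 0.22 to 0.84, adjusted p = 0.156), which did not pass, although 3 of the 17 alternatives called it. CD11c- NMO cells against controls gave 0.22 (SE 0.126, adjusted p = 0.384).

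The Gabarap call was kept when any 1 library was left out and under each other setting. It was made in all 17 alternatives tried (other scalings, filters, tools and corrections, and each library left out), with log2 fold changes from 0.52 to 0.95 and adjusted p from 4.61e-05 to 0.0465. The lowest value came without CD11c+ replicate 1, the library that stands apart by GC content (log2 fold change 0.52). The highest came without CD11c+ replicate 2 (0.95), and the highest adjusted p came without control replicate 3 (log2 fold change 0.67, adjusted p = 0.0465). Leaving out either CD11c+ library leaves 1 in that group, which is then assumed to vary like the other groups.

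The other 4 genes of the family were not called in any comparison. Map1lc3a, which encodes LC3A, was at 30.6 and 23.1 CPM in CD11c+ libraries, 19.0, 23.0 and 23.7 in CD11c- NMO libraries and 25.9, 23.1 and 22.9 in controls, with overlapping groups. Map1lc3b encodes LC3B, whose lipid-coupled form is the usual marker of autophagosomes. It was at 61.1 and 116 CPM in CD11c+ libraries, 65.99, 78.7 and 86.3 in CD11c- NMO libraries and 86.3, 70.0 and 64.6 in controls. The pair of CD11c+ libraries held both the lowest and the highest Map1lc3b level of the study, so the group mean of 88.5 ± 38.8 CPM (SD, n = 2) says little about direction.

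Gabarapl1 and Gabarapl2, the relatives of Gabarap also known as GEC1 and GATE-16, were at their lowest in CD11c- microglia of NMO mice. Gabarapl1 was at 33.7 and 31.0 CPM in CD11c+ libraries, 27.5, 20.9 and 27.3 in CD11c- NMO libraries and 34.4, 33.0 and 30.7 in controls. The CD11c- NMO libraries did not overlap either other group, while the CD11c+ and control libraries overlapped. CD11c- NMO against control cells gave a log2 fold change of -0.37 (SE 0.130, interval -0.66 to -0.08, adjusted p = 0.152). CD11c+ against CD11c- NMO cells gave 0.36 (SE 0.148, adjusted p = 0.301). Gabarapl1 overlaps the gene model 1700101I11Rik on the other strand. Gabarapl2 was at 6.94 and 7.58 CPM in CD11c+ libraries, 4.94, 4.97 and 6.47 in CD11c- NMO libraries and 7.34, 8.78 and 8.63 in controls (CD11c- NMO against control log2 fold change -0.59, SE 0.192, interval -1.02 to -0.17, adjusted p = 0.126). Neither gene passed, and neither did so under any of the 17 alternatives.

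Gabarap also took a larger share of its family in the NMO libraries. Gabarap made up 71.9% and 65.6% of the family's length-scaled level in CD11c+ libraries, 67.1%, 66.3% and 63.3% in CD11c- NMO libraries and 59.2%, 59.8% and 57.2% in controls. Each of the 5 NMO libraries was above each of the 3 controls. Gabarapl1 made up 8.76% and 9.88% in CD11c+ libraries, 11.1%, 8.25% and 10.4% in CD11c- NMO libraries and 12.99%, 13.4% and 13.9% in controls. These shares are a description and were not tested, and a share rises for 1 gene when it falls for others. They also depend on the length used, which for Map1lc3b was 7517 bases of annotated exon against 4138 in its longest transcript. Levels of Map1lc3b and Gabarapl2 may be too low because of their near-identical copies, so the size of each share is uncertain. Controls also differ from NMO libraries in their library numbers (21 to 23 against 7 to 12). A difference in handling and the disease cannot be told apart in any comparison with controls, that of Gabarap included.

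**Figure D2:**
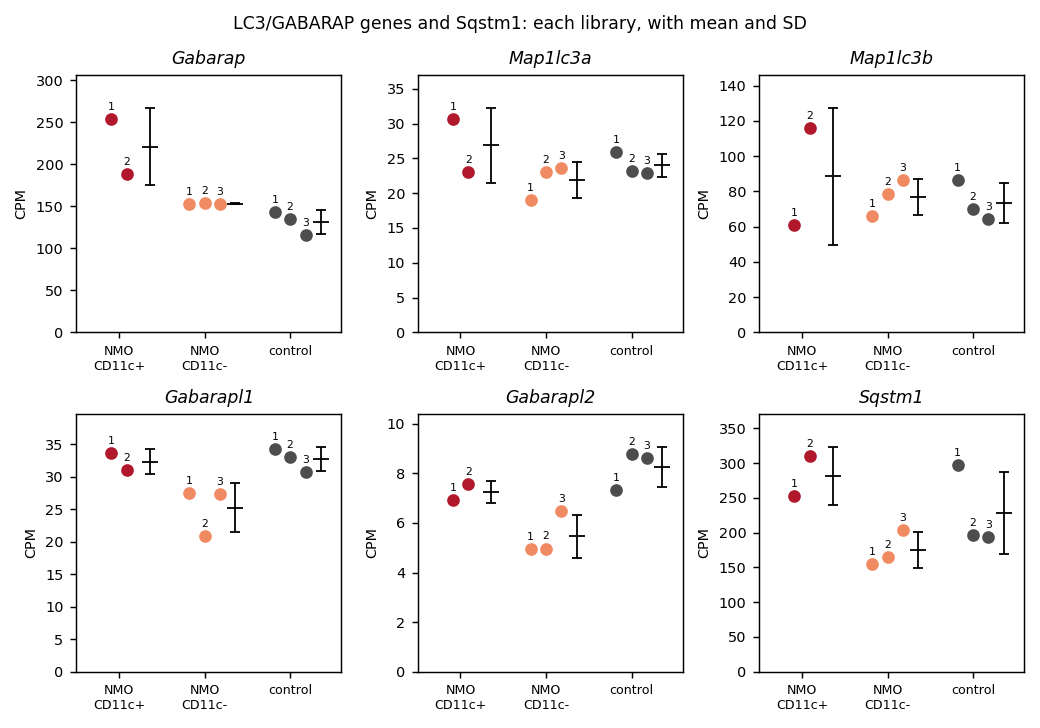
Level in CPM (y axis, starting at 0) of the 5 LC3 and GABARAP genes and Sqstm1 in each library, by group, with the replicate number above each point and bars for mean and SD. Gabarap has its 2 CD11c+ libraries at 189 and 253 CPM above the 6 others, whereas both Map1lc3b extremes are CD11c+ libraries.

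Among the receptors Sqstm1 had the largest difference between the NMO subsets. The protein p62 binds ubiquitinated cargo and LC3 and is itself degraded by autophagy. Sqstm1 (chromosome 11 from 50199366 to 50210827, minus strand, overlapping Mrnip on the other strand) was at 252 and 311 CPM in CD11c+ libraries, 155, 165 and 204 in CD11c- NMO libraries and 297, 196 and 193 in controls. Both CD11c+ libraries were above all 3 CD11c- NMO libraries, and the controls overlapped both. The log2 fold change was 0.69 for CD11c+ against CD11c- NMO cells (SE 0.201, interval 0.24 to 1.14, adjusted p = 0.185), -0.39 for CD11c- NMO cells against controls (SE 0.182, adjusted p = 0.286) and 0.30 for CD11c+ NMO cells against controls (SE 0.202, adjusted p = 0.352). The first of these is called by DESeq2 (adjusted p = 0.0376) and without the low-count filter (0.00218).

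Immediate-early genes, which respond within minutes to many stimuli, varied widely among the libraries of each group. The 6 genes Fos, Jun, Egr1, Ier2, Atf3 and Dusp1 summed to 5142 and 24349.7 CPM in CD11c+ replicates 1 and 2, to 4558, 8866 and 12456 in CD11c- NMO replicates 1, 2 and 3 and to 30923, 15332 and 17299.7 in control replicates 1, 2 and 3. In each group the library with the highest sum also had the highest Sqstm1 and Map1lc3b level. The same held for Uvrag, and the share of all genes for which it holds was not counted. Across groups the order differed, with more Sqstm1 in CD11c+ replicate 1 than in control replicates 2 and 3 at a lower sum. The sums also differed by group, with every control above every CD11c- NMO library. Any part of the immediate-early genes in the levels of Sqstm1 and Map1lc3b was not tested. With the immediate-early score as a covariate, an alternative chosen after seeing the data, Sqstm1 had a log2 fold change of 0.59 between the NMO subsets (adjusted p = 0.0752). Map1lc3b then had 0.43 for CD11c+ NMO cells against controls and was called (adjusted p = 0.0342, against 0.480 without the covariate), and -0.014 between the NMO subsets.

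The other receptors split in direction. Calcoco1, a receptor for the endoplasmic reticulum that resembles NDP52, was at 125 and 77.0 CPM in CD11c+ libraries, 69.9, 81.3 and 71.3 in CD11c- NMO libraries and 70.4, 73.6 and 59.1 in controls. Against controls CD11c+ cells gave 0.57 on the log2 scale (SE 0.184, adjusted p = 0.0751). This value was 0.18 without CD11c+ replicate 1 and 0.87 without CD11c+ replicate 2. DESeq2 calls this difference (adjusted p = 0.0377). Tax1bp1, a ubiquitin-binding receptor that also restrains NF-kB signalling, was at 89.3 and 115 CPM in CD11c+ libraries, 125, 109.6 and 118 in CD11c- NMO libraries and 131, 132 and 133 in controls (CD11c+ NMO against control log2 fold change -0.37, SE 0.122, adjusted p = 0.078). Its controls were above all 5 NMO libraries. After correction for GC content and transcript length that fold change was -0.09 (adjusted p = 0.554). Nbr1 was at 190.0 and 179 CPM in CD11c+ libraries, 188, 164 and 192 in CD11c- NMO libraries and 208, 197 and 178 in controls. Optn, the receptor optineurin of mitophagy, was at 10.2 and 7.05 CPM in CD11c+ libraries, 6.43, 10.8 and 5.73 in CD11c- NMO libraries and 4.28, 5.14 and 6.28 in controls, and its 95% intervals reached a log2 fold change of 1.43.

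In the class III PI3 kinase complex Becn1 was higher in both CD11c+ libraries than in the 6 others, without passing the test. Becn1 encodes Beclin, the scaffold on which the kinase complexes assemble, and overlaps Cntd1 on the other strand. It was at 89.1 and 84.4 CPM in CD11c+ libraries, 68.2, 73.0 and 63.2 in CD11c- NMO libraries and 73.4, 68.9 and 67.0 in controls. The log2 fold change was 0.35 against CD11c- NMO cells (SE 0.103, interval 0.12 to 0.58, adjusted p = 0.188) and 0.31 against controls (SE 0.102, interval 0.09 to 0.54, adjusted p = 0.0773). The difference from controls is called after GC and length correction (0.45, adjusted p = 0.0228) and without CD11c+ replicate 2 (0.35, adjusted p = 0.0329).

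The partners that give the kinase its specificity differed less. Atg14, which directs it to autophagosome formation, was at 42.5 and 44.9 CPM in CD11c+ libraries, 46.4, 42.6 and 44.96 in CD11c- NMO libraries and 53.8, 51.0 and 51.3 in controls, so that every control was above every NMO library. The log2 fold change was -0.25 for CD11c+ NMO cells against controls (SE 0.103, adjusted p = 0.141) and -0.22 for CD11c- NMO cells (SE 0.090, adjusted p = 0.221). Rubcn, which encodes Rubicon, a brake on autophagosome maturation that is required for LC3 attachment to phagosomes, was at 80.1 and 68.5 CPM in CD11c+ libraries, 74.2, 69.9 and 77.4 in CD11c- NMO libraries and 84.1, 87.6 and 86.2 in controls. Its log2 fold changes against controls were -0.21 and -0.22 in CD11c+ and CD11c- NMO cells (adjusted p = 0.213 and 0.234), and the first is called lower after GC and length correction. Pik3c3, the catalytic subunit, Pik3r4, its regulatory subunit, Uvrag, which takes the place of Atg14 in a second complex, and Ambra1, a Beclin partner, had log2 fold changes between -0.17 and 0.15 in all 3 comparisons.

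**Figure D3:**
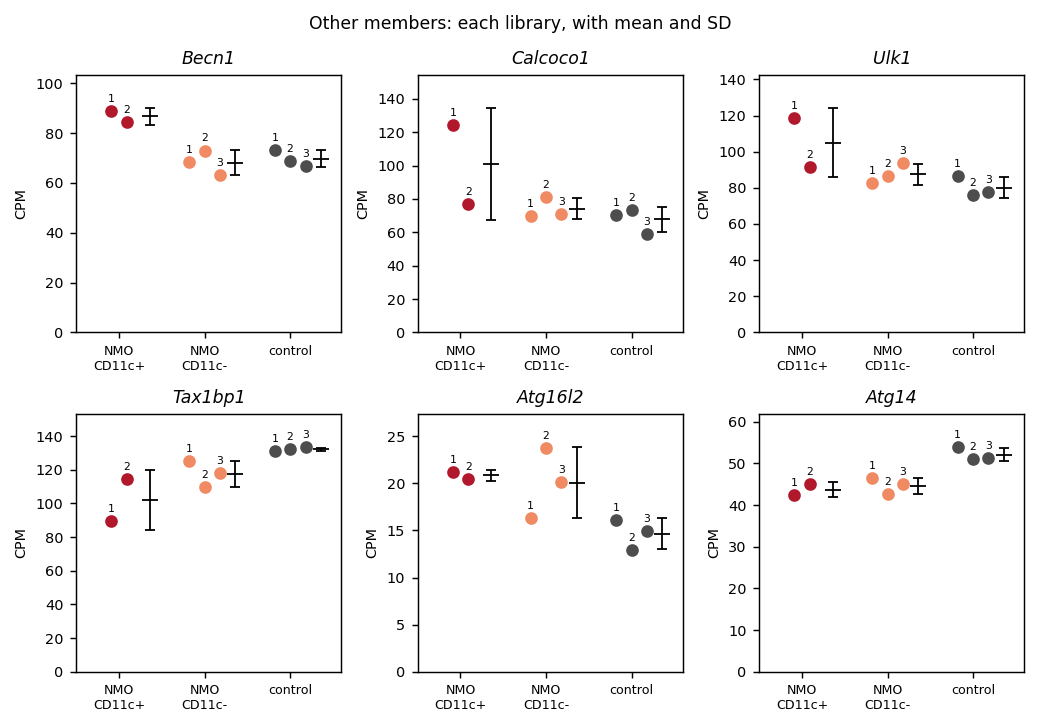
Level in CPM (y axis, starting at 0) of Becn1, Calcoco1, Ulk1, Tax1bp1, Atg16l2 and Atg14 in each library, by group, with the replicate number above each point and bars for mean and SD. Becn1 has both CD11c+ libraries on top (84.4 and 89.1 CPM) and Atg14 has all 3 controls on top (51.0 to 53.8 CPM), while for Calcoco1 and Ulk1 CD11c+ replicate 1 is far above replicate 2.

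The initiation complex showed 0 called genes in each comparison. Ulk1, its kinase, was at 118 and 91.4 CPM in CD11c+ libraries, 82.4, 86.3 and 93.7 in CD11c- NMO libraries and 86.7, 76.2 and 77.4 in controls (CD11c+ NMO against control log2 fold change 0.39, SE 0.128, adjusted p = 0.0809). Ulk2 was at 196 and 251 CPM in CD11c+ libraries, 294, 233 and 284 in CD11c- NMO libraries and 280.1, 274 and 281 in controls (CD11c+ NMO against control -0.32, SE 0.142, adjusted p = 0.173). Rb1cc1, which encodes the scaffold FIP200, was at 40.2 and 75.05 CPM in CD11c+ libraries, 80.2, 69.3 and 77.0 in CD11c- NMO libraries and 76.6, 82.6 and 91.8 in controls (CD11c+ NMO against control -0.53, SE 0.212, adjusted p = 0.132). In all 3 genes CD11c+ replicate 1 lay farther from the controls than replicate 2. Atg13 and Atg101, the remaining subunits, had log2 fold changes between -0.13 and 0.02.

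Of the genes for membrane supply, Atg2a, a lipid transfer protein, was at 127 and 93.0 CPM in CD11c+ libraries, 90.5, 94.0 and 102 in CD11c- NMO libraries and 89.3, 87.1 and 83.0 in controls. CD11c+ NMO cells against controls gave 0.35 on the log2 scale (SE 0.133, adjusted p = 0.119). That value was 0.10 without CD11c+ replicate 1 (adjusted p = 0.589) and 0.55 without CD11c+ replicate 2 (adjusted p = 0.00285). Atg9a, the lipid scramblase that seeds the membrane, was at 49.2 and 26.1 CPM in CD11c+ libraries, 33.1, 37.6 and 40.4 in CD11c- NMO libraries and 33.5, 33.6 and 29.6 in controls. Those CD11c+ libraries again held both the highest and the lowest level. Atg2b and the PI3P-binding genes Wipi1 and Wipi2 had log2 fold changes between -0.10 and 0.33, and none was called.

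The conjugation system, which activates LC3 and GABARAP proteins and couples them to lipid, was the largest role and also had 0 called genes in each comparison. Its members summed to 333 and 370.1 CPM in CD11c+ libraries, 360 to 381 in CD11c- NMO libraries and 358 to 386 in controls. Atg16l2, a relative of Atg16l1 (which sets the site of conjugation), was at 21.2 and 20.4 CPM in CD11c+ libraries, 16.3, 23.8 and 20.1 in CD11c- NMO libraries and 16.1, 12.96 and 14.9 in controls. All 5 NMO libraries were above the controls, by a log2 fold change of 0.51 in CD11c+ cells (SE 0.183, adjusted p = 0.103) and 0.45 in CD11c- cells (SE 0.162, adjusted p = 0.160). Atg16l1 was at 69.9 and 84.4 CPM in CD11c+ libraries, 78.6, 86.1 and 80.1 in CD11c- NMO libraries and 77.5, 78.0 and 78.2 in controls. Atg10, the conjugating enzyme for Atg12, was at 6.74 and 7.22 CPM in CD11c+ libraries, 6.43, 6.32 and 4.996 in CD11c- NMO libraries and 9.66, 7.18 and 7.72 in controls (CD11c- NMO against control -0.47, SE 0.198, adjusted p = 0.238).

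CD11c+ replicate 1 was the lowest of the 8 libraries for Atg5, Atg3 and Atg12. Atg5, the partner of Atg12, was at 29.0 and 47.0 CPM in CD11c+ libraries, 45.3, 39.4 and 41.9 in CD11c- NMO libraries and 51.1, 47.0 and 44.6 in controls. Atg3, which transfers LC3 to lipid, was at 27.2 and 37.9 CPM in CD11c+ libraries, 37.1, 39.6 and 39.1 in CD11c- NMO libraries and 43.7, 43.3 and 38.2 in controls (CD11c+ NMO against control -0.35, SE 0.148, adjusted p = 0.147). Atg7, the activating enzyme, Atg12 and the 4 Atg4 proteases had log2 fold changes from -0.22 to 0.31 in the 3 comparisons. Of the fusion genes, Stx17, the SNARE of the autophagosome, and Epg5, a tether on the lysosome side, had values from -0.29 to 0.18.

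Across the members the difference between the 2 CD11c+ libraries followed GC content. The log2 ratio of CD11c+ replicate 1 over replicate 2 was negative for all 9 members under 45% GC, with a median of -0.36, and positive for 5 of 6 members over 55% GC, with a median of 0.43. Over the 40 members the Pearson correlation with GC content was 0.637 and the Spearman correlation 0.676, as a description. Over 11946 tested genes they were 0.465 and 0.564. Map1lc3b, at 51.5% GC, stood off that line with a ratio of -0.92. Without CD11c+ replicate 2, which leaves replicate 1 alone in its group, 6 members were called higher against controls (Ulk1, Becn1, Atg9a, Atg2a, Gabarap and Calcoco1) and 5 lower (Ulk2, Rb1cc1, Atg3, Atg5 and Tax1bp1), beside 32.7% of all genes. Between the NMO subsets 5 were then called higher and 5 lower, beside 24.2% of all genes. Without replicate 1 the members called against controls were Gabarap and Map1lc3b, both higher, beside 7.06% of all genes. Rb1cc1 had a log2 fold change against controls of -1.06 without CD11c+ replicate 2, -0.16 without replicate 1 and -0.19 after GC and length correction. Without replicate 2 the value was 0.56 for Ulk1, -0.51 for Ulk2, -0.62 for Atg3 and -0.57 for Tax1bp1. Without replicate 1 it was 0.19 for Ulk1, -0.15 for Ulk2, -0.14 for Atg3 and -0.21 for Tax1bp1.

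**Figure D4:**
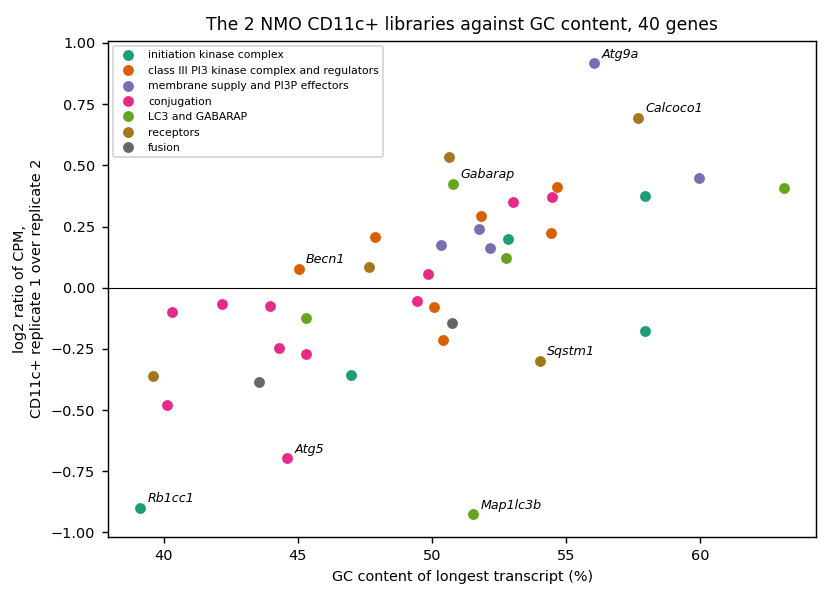
Log2 ratio of CPM between the 2 CD11c+ libraries (y axis, replicate 1 over replicate 2) against GC content of the longest transcript (x axis, percent) for the 40 genes, coloured by role. The points run from low left (Rb1cc1, -0.90 at 39.1% GC) to upper right (Calcoco1, 0.69 at 57.7% GC), and Map1lc3b lies below the others at 51.5% GC.

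Levels of neutrophil markers also differed between the groups, and their part in the members' values was not tested. Of the 10 markers 9 were higher in every CD11c- NMO library than in every control, and CD11c- NMO replicate 2 had the highest sum. Without that library 0 members were called between CD11c- NMO and control cells, as with it, beside 1.58% of all genes without it and 3.72% with it. This count cannot show the part of the markers, since the other CD11c- NMO libraries also had sums above every control. In both CD11c+ libraries each of the 10 markers was under 5 CPM.

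Beyond the 40 genes, 72 others of the pathway were followed in 5 lists, and few of them were called. Between the NMO subsets 0 of 72 were called by edgeR and 0 by DESeq2, beside 0.283% and 2.23% of all genes. At an unadjusted p under 0.05, 7 were higher and 6 lower, beside 7.90% and 7.54% of all genes. Between CD11c- NMO and control cells 2 were lower and 0 higher. They were Prkab1, a subunit of the energy-sensing kinase AMPK (151, 143 and 144 CPM in CD11c- NMO libraries against 190.3, 199 and 182 in controls, log2 fold change -0.39, adjusted p = 0.0445), and Bcl2, which binds Beclin and blocks cell death (6.13, 8.28 and 6.17 CPM in CD11c- NMO libraries against 11.4, 12.0 and 15.3 in controls, log2 fold change -0.91, adjusted p = 0.0334). Between CD11c+ NMO and control cells 3 were higher and 4 lower. Those higher were Tecpr1, which tethers autophagosomes to lysosomes (log2 fold change 0.77, adjusted p = 0.0225), Castor1, an arginine sensor upstream of mTORC1 (0.75, adjusted p = 0.0373), and Vamp8, a SNARE of the lysosome (0.49, adjusted p = 0.0312). Those lower were Deptor, an inhibitor of mTOR (-0.88, adjusted p = 0.0318), Bnip3l, a receptor of mitophagy (-0.62, adjusted p = 0.045), the transcription factor gene Foxo1 (-0.50, adjusted p = 0.0214) and Prkab1 (-0.42, adjusted p = 0.0298).

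Each of these 9 calls on pathway genes was lost without any 1 of the control libraries, and each kept its direction in all 17 alternatives. All 7 calls for CD11c+ NMO cells against controls were also lost when only those 2 groups entered the test. Those of Tecpr1, Vamp8, Deptor and Bnip3l were lost without CD11c+ replicate 1, that of Castor1 without CD11c+ replicate 2, and those of Castor1 and Foxo1 after GC and length correction. Those of Prkab1, Castor1, Vamp8, Deptor and Bnip3l were lost without CD11c- NMO replicate 1 or 3, and that of Bnip3l also without replicate 2. For CD11c- NMO cells against controls, the Prkab1 call was lost with upper-quartile scaling, with library size only and without any 1 of the CD11c- NMO libraries. The Bcl2 call was lost with the immediate-early covariate and without CD11c- NMO replicate 1 or 3. The shares called, 2 of 72 and 7 of 72, stand beside 3.72% and 10.2% of all genes.

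TFEB, TFE3 and MITF are the transcription factors that switch on autophagy and lysosome genes through an E-box, and their own genes were not called. Tfeb was at 121 and 78.9 CPM in CD11c+ libraries, 62.4, 69.4 and 67.4 in CD11c- NMO libraries and 75.5, 67.2 and 72.2 in controls (CD11c+ against CD11c- NMO log2 fold change 0.58, SE 0.158, adjusted p = 0.161). Both CD11c+ libraries were above the 6 others, but replicate 2 only slightly above control replicate 1. Mitf was at 35.7 and 65.0 CPM in CD11c+ libraries, its lowest and highest level in the study. It was at 44.1 to 55.5 CPM in CD11c- NMO libraries and 48.7 to 54.1 in controls. Tfe3 was at 251 and 258 CPM in CD11c+ libraries, 256, 250.2 and 255 in CD11c- NMO libraries and 264, 278 and 265 in controls. The E-box core CACGTG, a palindrome that reads the same on both strands, was searched in RefSeq promoters of GRCm38.p6 (250 bases before to 50 after a RefSeq start of the gene), of which 38 belong to 33 of the 40 members. It was present in 5 of the 38 (13.2%), against 7.15% of all 32851 promoters. The longer form GTCACGTG, searched on both strands and always overlapping the core, was in 3 of the 38 (7.89%), against 2.25% of all. The 6 matches are shown because they are the places in these promoters where the E-box core occurs, each as 30 bases on the strand of the gene with the core in capitals. Those of Atg7, Atg14 and Rubcn lie inside the GENCODE M21 gene models, downstream of the gene starts given there.
Atg3 (first match, chr16:45158723-45158752, plus strand): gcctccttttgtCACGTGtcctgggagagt
Atg3 (second match, chr16:45158746-45158775, plus strand): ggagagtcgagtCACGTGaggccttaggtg
Atg14 (chr14:47568418-47568447, minus strand): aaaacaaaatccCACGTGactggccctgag
Atg7 (chr6:114670952-114670981, plus strand): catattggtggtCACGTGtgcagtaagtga
Atg5 (chr10:44268313-44268342, plus strand): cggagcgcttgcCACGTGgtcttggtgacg
Rubcn (chr16:32868437-32868466, minus strand): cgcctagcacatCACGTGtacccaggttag
The longer form is in Atg3, Atg14 and Atg7. None of these 5 genes was called, with log2 fold changes for CD11c+ NMO cells against controls of -0.35 (Atg3), -0.25 (Atg14), 0.10 (Atg7), -0.32 (Atg5) and -0.21 (Rubcn). The Gabarap and Sqstm1 windows hold no CACGTG, which says nothing of sites elsewhere.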

How the data were processed

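Each library has 1 file of whole-number gene counts deposited by the authors. STAR, HTSeq 0.5.4, edgeR 3.12.0 and the build GRCm38 are named in the submitters' processing notes. Not given in the sources used here are the annotation release, the strand setting and the treatment of reads with several matches. Symbols, positions, exon lengths and GC content came from GENCODE M21 (40254 of 41388 identifiers matched; 0.155% of counts lie in the others). The members and gene lists were chosen with earlier results of these data known.

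Tests used R 4.3.3 and edgeR 4.0.16: filterByExpr by group (minimum count 10), TMM scaling and 1 quasi-likelihood fit of all 8 libraries (residual degrees of freedom 5), with a contrast of group means per comparison and Benjamini-Hochberg adjustment over 12002 genes. SE is the fold change divided by the square root of F, and 95% intervals use the t distribution with the fit's total degrees of freedom. CPM use library sizes scaled by TMM over the tested genes. The procedure was tested on simulated counts that held no GC shift between libraries, unlike CD11c+ replicate 1. Members were given in full where called, in the LC3 and GABARAP family with Sqstm1, and for the 4 smallest p-values per comparison. Other members with smaller differences, and Tfeb, Tfe3 and Mitf, were added after their values were seen. Alternatives were RLE, upper-quartile or no scaling, no filter or a minimum count of 50, DESeq2 1.42.0, only the groups compared, a spline correction for GC content and transcript length, and each library left out. An immediate-early covariate was added after seeing the data. Protein sequences were not used here. Of the microglia markers, 1 is not reported here.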

Additional observations from a re-analysis of the deposited data

How the results depend on the processing

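The Gabarap call between CD11c+ NMO and control cells, and the count of 0 members called between CD11c- NMO and control cells, held in all 17 alternatives. Against controls, the number of members called higher in CD11c+ cells was 2 in place of 1 without the low-count filter, with DESeq2, after GC and length correction and with the immediate-early covariate (9.98%, 13.9%, 12.1% and 11.1% of all genes in either direction). The number called lower was 2 without the filter and 1 after GC and length correction, in place of 0. Between the NMO subsets 2 members were called higher, in place of 0, without the filter (3.34% of all genes) and with DESeq2 (2.23%). With 1 library left out, the members called higher numbered 1 to 6 and those lower 0 to 5 for CD11c+ NMO cells against controls, and 0 to 5 each between the NMO subsets, where the share of all genes called ranged from 4.09% to 32.7% and from 0.0322% to 24.2%. The values above 2 all came without CD11c+ replicate 2, which leaves a lone CD11c+ library that is assumed to vary like the other groups, and the cause was not tested.

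Direction reversed only for genes that were not called. The log2 fold change of Gabarapl1 for CD11c+ NMO cells against controls (-0.02) was 0.0043 with upper-quartile scaling and -0.079 to 0.040 with 1 library left out. That of Map1lc3a (0.16) was -0.24 after GC and length correction and -0.057 to 0.35 with 1 library left out. Map1lc3b for CD11c- NMO cells against controls (0.06) was -0.0012 after that correction and -0.026 to 0.19 with 1 library left out. Map1lc3b for CD11c+ NMO cells lay between -0.27 and 0.65 against controls with 1 library left out. Against CD11c- NMO cells it lay between -0.34 and 0.59, and it was -0.014 with the immediate-early covariate, which was chosen after seeing the data. No paired analysis was possible because the labels link no libraries to each other and the replicate numbers only follow accession order. Depth limits Atg4a (28 to 41 counts per library), Gabarapl2 (33 to 82), Atg10 (33 to 79) and Optn (35 to 72).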
